A study of Homo sapiens with 6 samples.

Results

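The genes described here are 10 genes of the YAP and TEAD pathway: the coactivators YAP1 and WWTR1, the DNA-binding partners TEAD1 and TEAD4, the regulators LATS2, AMOTL1, AMOTL2 and AJUBA, and the target genes ANKRD1 and AXL. They were taken by gene symbol from the deposited count table, and all 10 were found among its 20332 genes. RNA was sequenced from Huh-7, an established human liver cancer cell line, in 3 samples with stable RAC3 overexpression brought in by lentivirus and in 3 negative control samples with a genotype label of WT. The construct of the negative control, and whether each line was a clone or a pool of infected cells, is not given in the sources used here. The study asked which transcripts change when RAC3, a small GTPase, is overexpressed in these cells. The labels call the samples of a group separate RNA samples and name no separate cultures, so the p-values below measure the spread between these samples, which may be technical. Counts on genes summed to 14368764, 15269997 and 18199888 for negative controls 1 to 3 and to 17332318, 16225766 and 13855762 for RAC3 samples 1 to 3.

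YAP1 and WWTR1 (also called TAZ) do not bind DNA themselves and switch genes on through the TEAD transcription factors. The Hippo kinases STK3 and STK4 activate LATS1 and LATS2, which phosphorylate YAP1 and WWTR1 and hold them in the cytoplasm, and angiomotins and cell contacts add to this, whereas actin tension and sparse growth let them enter the nucleus. RAC proteins drive the branched actin of the cell edge, and the pathway restrains growth in the liver. RNA counts show neither phosphorylation nor the place of a protein in the cell.

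RAC3 (chr17:82031624-82034204, GRCh38) was measured first, since it checks the labels. It had 35.6, 31.4 and 32.8 CPM (counts scaled by library size and edgeR's TMM factor) in the negative controls 1, 2 and 3, against 232.6, 239.6 and 225.4 in the RAC3 samples 1, 2 and 3. Every RAC3 sample lay far above every control, also the RAC3 samples 2 and 3, whose genotype labels name RAC4 and RAC5 while their titles give RAC3. Its log2 fold change was 2.81 with a standard error of 0.0574 (edgeR quasi-likelihood test, Benjamini-Hochberg adjusted p = 9.6e-18, higher in 3 of 3 samples). Per transcript length, in the deposited FPKM values (fragments scaled by transcript length and library), RAC3 went from 35.9 ± 2.49 to 244.5 ± 8.30 (SD, n = 3 per group), which is above its widely expressed paralog RAC1 at 184.6 ± 4.37 FPKM in the RAC3 samples. RAC1 itself had a log2 fold change of 0.02 and RAC2, expressed at 2.19 ± 0.510 CPM (SD, n = 3) in the controls, one of -0.49, and neither passed the test.

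The cell line was checked against marker genes. All 10 hepatocyte markers were counted, led by the keratin KRT8. Their summed level was 12810, 12490 and 12680 CPM in the negative controls, against 11950, 12620 and 12490 in the RAC3 samples. By adjusted p 4 of the 10 were called, where 28.5% of all genes tested were. FGB (0.30), APOB (0.20) and AFP (0.16) were higher and TTR (-0.26) lower on the log2 scale. Of all genes 13.3% were higher and 15.3% lower. Endothelial markers summed to between 2.53 and 3.77 CPM over the 6 samples, led by PECAM1 and with TEK at 0 counts in every sample. Leukocyte markers, led by CD14, summed to 43.3, 48.2 and 50.7 CPM in the controls and to 40.9, 42.0 and 42.1 with RAC3, with PTPRC at 0.160 ± 0.144 CPM in the controls and 0.415 ± 0.149 with RAC3 (SD, n = 3). Bile duct and stromal lists gave more: 5 cholangiocyte markers led by KRT19 summed to 975.6, 960.7 and 980.8 CPM in the controls and 785.1, 844.4 and 839.4 with RAC3, and 8 fibroblast or stellate cell markers led by LUM, with THY1 at 0, summed to 232.8, 242.7 and 249.2 CPM in the controls and 285.3, 272.9 and 279.7 with RAC3. The leukocyte, cholangiocyte and fibroblast sums separated the groups, but the markers within each list disagreed. On the log2 scale CD14 was called lower (-0.37) and CD68 higher (0.47), KRT19 (-0.32) and SOX9 (-0.24) lower and SPP1 (0.49) higher with EPCAM not called (-0.03), and LUM (0.22) and COL1A2 (0.51) higher and COL1A1 (-0.22) lower. PDGFRB, at 2.93 CPM in the controls, was at -0.71 and not called (edgeR quasi-likelihood test, adjusted p = 0.0573). It was the only marker of these lists past the study's thresholds, a fold change above 1.5 and an unadjusted p below 0.05. The part of these marker genes in the results below was not tested. In bulk RNA, fewer cells of a type and less RNA per cell cannot be told apart.

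Of the 10 pathway genes, 9 had enough counts to be tested, and AXL did not, with counts of 4, 6 and 5 under the negative control, against 0, 8 and 5 under RAC3 overexpression. At a Benjamini-Hochberg adjusted p-value below 0.05 in edgeR's quasi-likelihood test, 4 of the 9 were called, against 28.5% of the 12941 genes tested. TEAD1 and LATS2 were higher with RAC3 overexpression, where 13.3% of all genes were higher, and AMOTL2 and AMOTL1 were lower, where 15.3% of all genes were lower. In these 4 genes the 3 samples of each group also did not overlap, which held for 42.5% of all genes tested. At the study's own thresholds, a fold change above 1.5 and an unadjusted p-value below 0.05, edgeR called 0 of the 9, and DESeq2 and limma-voom also called 0, while 4 of the 9 had an unadjusted p below 0.05, against 39.2% of all genes tested. Those thresholds called 4.68% of all genes, 1.68% higher and 2.99% lower. The median log2 fold change of the 9 genes was -0.04, beside 0.004 over all genes tested, and the one farthest from 0 was -0.36 for AMOTL2. Changes in these genes were therefore small in size, and only in some of them larger than the spread between samples.

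Over all genes, 1717 were called higher and 1974 lower by adjusted p, so that 46.5% of the calls were higher, and 36% of the calls at the study's thresholds were higher. With scaling by library size alone these shares were 65.4% and 48.4%, since the median of all genes then lay at 0.06 on the log2 scale, and 20.2% of all genes were called higher and 10.7% lower. The members called were then 3, with TEAD1 and LATS2 higher and AMOTL2 lower, and AMOTL1 no longer past the threshold at -0.16. DESeq2 called 2 of the members, TEAD1 and AMOTL2, and 24.2% of all genes.

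**Figure D1:**
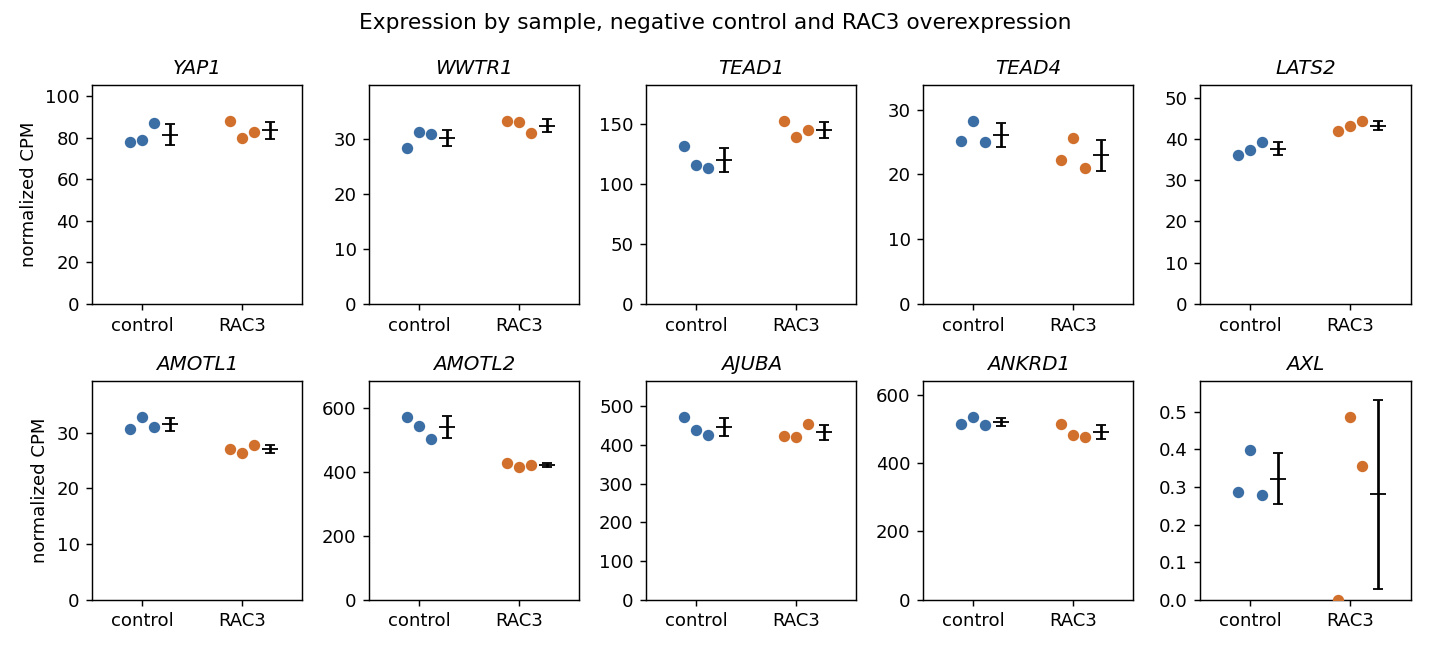
Normalized CPM (vertical axes, each from 0) of the 10 genes in each sample, with negative controls in blue and RAC3 samples in orange, and the mean ± SD (n = 3) beside the points. The groups are apart for TEAD1, LATS2, AMOTL1 and AMOTL2, and AXL lies near 0 in all samples.

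Among the coactivators, YAP1 had 78.2, 79.0 and 87.3 CPM in the negative controls 1, 2 and 3, against 87.8, 79.7 and 83.0 CPM in the RAC3 samples 1, 2 and 3. The groups overlapped, with a control and a RAC3 sample near the top of the range. Its log2 fold change was 0.03, with a 95% interval from -0.09 to 0.16. WWTR1 had 28.4, 31.2 and 30.8 CPM in the controls and 33.1, 33.0 and 31.0 CPM with RAC3. The RAC3 sample 3 lay among the controls, and the log2 fold change was 0.10 with a 95% interval from -0.05 to 0.26. Neither passed the test, with Benjamini-Hochberg adjusted p-values of 0.719 for YAP1 and 0.32 for WWTR1 in edgeR's quasi-likelihood test, and neither did so under any of the 15 alternatives tried. In the deposited FPKM values YAP1 was the more abundant transcript, at 22.2 ± 1.62 FPKM against 7.81 ± 1.02 for WWTR1 in the controls (SD, n = 3). WWTR1 made up 26.1% ± 3.68 of the YAP1 plus WWTR1 level in the controls and 24.0% ± 2.44 in the RAC3 samples (exact permutation test, two-sided, p = 0.6, n = 3 per group, where the smallest p that 3 against 3 samples can give is 0.1). This difference of -2.14 percentage points turned to 0.952 when the share was taken of raw counts, and ran from -3.77 to -0.149 points with each sample left out, smallest in size without the negative control 2. Exons of YAP1 and WWTR1 overlap antisense RNAs over 9.98% and 9.45% of their bases in GENCODE release 29, and the library kit does not mark strand, so reads of these partners cannot be told apart.

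The TEAD factors, which hold YAP1 and WWTR1 on DNA, did not move together. TEAD1 (chr11:12674591-12944483) had 131.9, 115.6 and 113.2 CPM in the negative controls and 152.3, 139.1 and 144.9 CPM with RAC3 overexpression. Every RAC3 sample was higher than every control, and the negative control 1 came closest. The log2 fold change was 0.28 with a standard error of 0.0583 (edgeR quasi-likelihood test, Benjamini-Hochberg adjusted p = 0.00154), and it passed the threshold in all 15 alternatives, between 0.16 and 0.34. TEAD4 had 25.1, 28.2 and 25.0 CPM in the controls and 22.2, 25.6 and 21.0 CPM with RAC3. The RAC3 sample 2 lay above the negative controls 1 and 3, so the groups overlapped. TEAD4 did not pass the test, with a log2 fold change of -0.18, a 95% interval from -0.37 to 0.01 and an adjusted p of 0.142 (edgeR quasi-likelihood test, Benjamini-Hochberg). Without the RAC3 sample 2 it passed, at -0.27 and an adjusted p of 0.046 by the same test, where its adjusted p-values over the 15 alternatives ran from 0.046 to 0.914.

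TEAD2 and TEAD3 were called lower. TEAD2 had 96.0, 87.4 and 92.8 CPM in the negative controls and 70.3, 80.3 and 73.5 CPM with RAC3, with no overlap between the groups. Its log2 fold change was -0.30 (edgeR quasi-likelihood test, Benjamini-Hochberg adjusted p = 0.00102) and was called in all 15 alternatives. TEAD3 had 46.3, 46.9 and 41.0 CPM in the controls and 32.8, 41.3 and 36.8 CPM with RAC3. The RAC3 sample 2 just passed the negative control 3, and the log2 fold change of -0.27 had an adjusted p of 0.018 (edgeR quasi-likelihood test, Benjamini-Hochberg). That call was lost without the negative control 2, at -0.24, and without the RAC3 samples 1 and 3, at -0.19 and -0.27, and the adjusted p-values over its 15 alternatives ran from 0.00488 to 0.287. A CD37 transcript overlaps 10.7% of the exon bases of TEAD2 on the opposite strand.

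Per length, TEAD2 was the most abundant TEAD transcript. It made up 51.5%, 50.2% and 53.6% of the summed FPKM of TEAD1 to TEAD4 in the negative controls, against 45.1%, 46.8% and 48.4% in the RAC3 samples. The share of TEAD1 was 16.4%, 14.03% and 17.0% in the controls and 26.2%, 21.4% and 21.9% with RAC3. Both shares separated the groups, TEAD1 upward by 7.34 percentage points and TEAD2 by -5.01, each with p = 0.1 in the two-sided exact permutation test (n = 3 per group), the smallest p that 3 against 3 can give. The mean of TEAD1 went from 15.3 to 21.2 in FPKM but from 120 to 145 in CPM. These 2 shares were not taken of raw counts. The share of TEAD3 was 15.5% ± 1.57 in the controls and 13.9% ± 0.879 with RAC3 (SD, exact permutation p = 0.3, n = 3 per group). The share of TEAD4 was 17.0% ± 1.74 in the controls and 16.2% ± 0.854 with RAC3 (SD, exact permutation p = 0.6, n = 3 per group), and its difference of -0.748 points turned to 0.236 without the negative control 2. Summed over all TEAD1 to TEAD4, the level was 96.6 ± 2.97 FPKM in the controls and 91.7 ± 4.35 with RAC3 (SD, exact permutation p = 0.3, n = 3 per group).

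Of the list of 10 YAP1, WWTR1, TEAD and VGLL genes, 8 were tested and 3 were called by adjusted p (37.5%, against 28.5% of all genes), TEAD1 higher and TEAD2 and TEAD3 lower. VGLL genes encode cofactors that bind TEAD proteins in place of YAP1. VGLL3 was the most abundant gene of this list, at 592 ± 33.4 FPKM in the controls and 670 ± 50.8 with RAC3 (SD, n = 3), and its log2 fold change of 0.11 missed the threshold (edgeR quasi-likelihood test, Benjamini-Hochberg adjusted p = 0.0575) but passed it in 5 of 15 alternatives: with limma-voom, with library size scaling alone, without a filter on low counts, and without the negative control 3 (0.13) or the RAC3 sample 2 (0.16). It turned to -0.06 with the GC trend described below taken out. VGLL4, a repressor of TEAD activity, had a log2 fold change of -0.05, which turned to 0.01 with scaling by library size alone. VGLL1 had 0.113 CPM in the RAC3 sample 1 and no count elsewhere, and VGLL2 had no count in any sample.

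**Figure D2:**
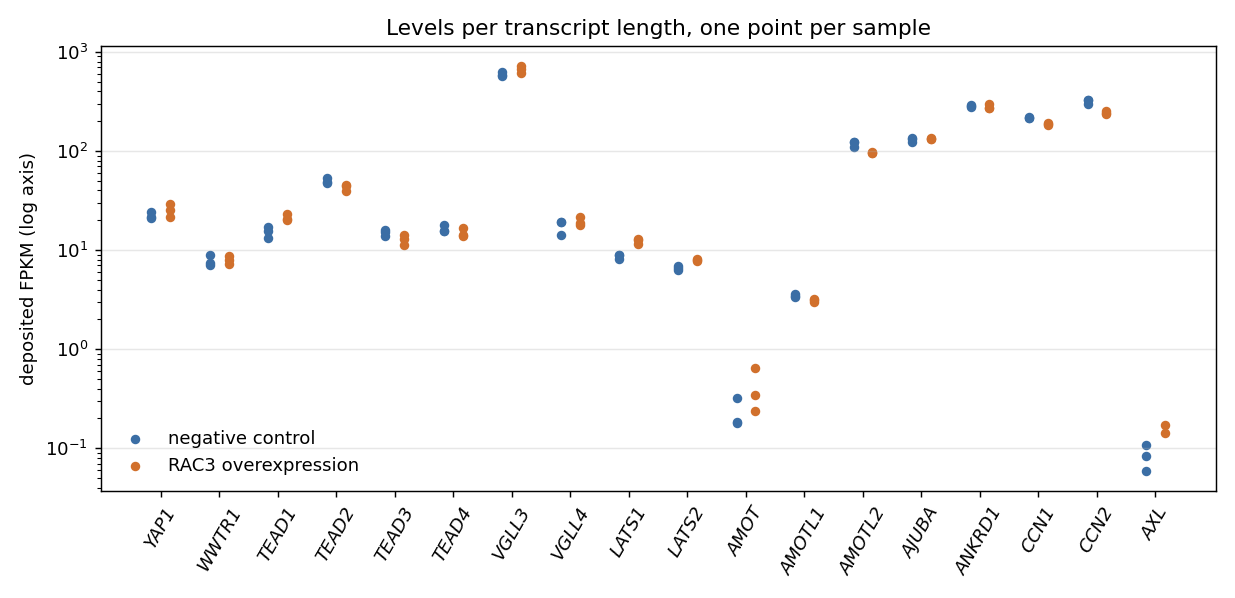
Deposited FPKM values (vertical log axis) of pathway genes, with each sample a point, negative controls in blue and RAC3 samples in orange. VGLL3, CCN2, ANKRD1 and CCN1 lie above 150 FPKM in every sample, AMOT and AXL lie below 1 FPKM, and the value of 0 for AXL in the RAC3 sample 1 cannot be drawn on this axis.

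Ordered by their level per length, the 10 genes ran in the negative controls from ANKRD1 at 284.9 ± 7.66 FPKM through AJUBA at 129.8 ± 5.37, AMOTL2 at 118.9 ± 8.19, YAP1, TEAD4, TEAD1, WWTR1, LATS2 and AMOTL1 at 3.46 ± 0.135 to AXL at 0.083 ± 0.024 (SD, n = 3). The values of AJUBA and AMOTL2 overlapped between control samples, though AJUBA stood above AMOTL2 within each control. Those of TEAD4 and TEAD1 also overlapped, and their order differed between the controls. In the RAC3 samples TEAD1 stood above TEAD4 in every sample, at 21.2 ± 1.51 against 14.9 ± 1.43 FPKM, and AJUBA above AMOTL2, at 133.3 ± 1.96 against 95.9 ± 1.71 (SD, n = 3). WWTR1 and LATS2 overlapped there, at 7.94 ± 0.707 and 7.93 ± 0.176 FPKM.

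Among the kinases, LATS2 (chr13:20973032-21061547), which phosphorylates YAP1 and is itself a YAP target, had 36.1, 37.4 and 39.3 CPM in the negative controls and 42.0, 43.2 and 44.3 CPM with RAC3 overexpression. All RAC3 samples lay above all controls. The log2 fold change was 0.20 with a standard error of 0.0668 (edgeR quasi-likelihood test, Benjamini-Hochberg adjusted p = 0.0334). This call was close to the threshold. It was lost without the negative controls 1 and 2 and the RAC3 samples 2 and 3, each left out alone, at log2 fold changes of 0.17, 0.19, 0.20 and 0.18. With DESeq2 and with a term for the replicate number it was lost at an unchanged 0.20. With the trend with transcript length removed it was lost at 0.18. Over the 15 alternatives its adjusted p-values ran from 0.00793 to 0.113, with 8 below 0.05. Its paralog LATS1 had 56.4, 54.4 and 53.5 CPM in the controls and 69.9, 59.7 and 66.5 CPM with RAC3, again without overlap. LATS1 had a log2 fold change of 0.26 (edgeR quasi-likelihood test, Benjamini-Hochberg adjusted p = 0.006), and the call held in all 6 fits that leave out a sample. It was lost with the GC trend described below taken out, at 0.12.

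The angiomotins bind YAP1 and WWTR1 outside the nucleus, and AMOTL2 is also a target gene of the pathway. AMOTL2 (chr3:134355874-134375479) had 570 CPM, 544 CPM and 502 CPM in the negative controls 1, 2 and 3, against 428 CPM, 414 CPM and 420.0 CPM in the RAC3 samples 1, 2 and 3. The RAC3 samples lay close together and all below the lowest control. The log2 fold change was -0.36 with a standard error of 0.0449 and a 95% interval from -0.45 to -0.26 (edgeR quasi-likelihood test, Benjamini-Hochberg adjusted p = 1.0e-05, lower in 3 of 3 samples). It was the member with the smallest p and was called in all 15 alternatives, at between -0.41 and -0.23. Among 11085 genes outside the lists with a mean of at least 50 counts, LRP5, TMEM94 and HNRNPA1L3 had the most similar profile over the 6 samples, with Euclidean distances of 0.045, 0.0452 and 0.0487 between centred log2 CPM values. HNRNPA1L3 is nearly identical to HNRNPA1, so its counts are uncertain.

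AMOTL1 (chr11:94706431-94876753) had 30.7, 32.8 and 31.1 CPM in the negative controls and 27.1, 26.4 and 27.9 CPM with RAC3. The groups were apart, and the log2 fold change was -0.22 (edgeR quasi-likelihood test, Benjamini-Hochberg adjusted p = 0.0347). This call held without the negative control 1 and was lost when any other sample was left out, with log2 fold changes over the 6 such fits between -0.24 and -0.19, and it was also lost with DESeq2, with scaling by library size alone and with a term for the replicate number. Its adjusted p-values over the 15 alternatives ran from 0.00715 to 0.117, with 7 below 0.05. AMOT, the founding angiomotin, was expressed at only 1.36, 1.199 and 1.45 CPM in the controls and 3.21, 2.43 and 1.77 CPM with RAC3. Its log2 fold change of 0.89 (edgeR quasi-likelihood test, Benjamini-Hochberg adjusted p = 0.036) was the only one in the Hippo list above the study's fold threshold, and the call held without the RAC3 sample 3 and was lost when any other sample was left out, at between 0.65 and 0.95. It was also lost with DESeq2, at 0.89, and with the replicate term, at 0.855. AJUBA, a LIM protein that binds LATS kinases and holds them back, had between 422 CPM and 472 CPM in all 6 samples with overlapping groups. It had a log2 fold change of -0.04 that did not pass the test and turned to 0.01 with scaling by library size alone.

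Of 36 Hippo kinases and regulators in the table, 35 were tested and 15 were called by adjusted p (42.9%, against 28.5% of all genes), 9 higher and 6 lower, where 13.3% of all genes were higher and 15.3% lower. With library size as the only scaling 12 were higher (20.2% of all genes under that scaling) and 2 lower (10.7%), AMOTL2 and DCHS1. Their median log2 fold change was 0.04. Those higher with RAC3 overexpression included the upstream kinase TAOK1 at 0.23, the LATS coactivator MOB1A at 0.23, the phosphatase scaffold STRN3 at 0.23 and the KIBRA relative WWC2 at 0.28. With the GC trend described below taken out, the calls of these genes were lost, at 0.09, 0.07, 0.10 and 0.19. The list then had 7 calls (20%, where all genes had 20.9%). STK4, a core kinase, had a log2 fold change of 0.20 (edgeR quasi-likelihood test, Benjamini-Hochberg adjusted p = 0.0218), and this call was lost without the negative control 2 and the RAC3 samples 1 and 3, at 0.18, 0.16 and 0.21. Those lower included the large cadherin DCHS1, which fell by 0.47, the polarity protein SCRIB, which fell by 0.18, the kinase NUAK2, which fell by 0.24, and STRN4, which fell by 0.14. The kinase STK3, its partner SAV1 and the upstream protein NF2 did not pass the test, with log2 fold changes of 0.17, -0.05 and 0.07, and the value of SAV1 turned to 0.01 with scaling by library size alone. STK3 passed without the RAC3 sample 2, at 0.29. Calls of LATS2, AMOTL1, AMOT and STK4 lost when a sample was left out are given above, and those of PTPN14 below. WWC2 lost its call without the negative control 2 (0.245 on the log2 scale) and the RAC3 sample 3 (0.24), and SCRIB without the RAC3 sample 1 (-0.13). NUAK2 lost it without the negative control 1 (-0.12) and the RAC3 samples 1 (-0.22) and 2 (-0.24). STRN4 lost it without the negative controls 1 (-0.13) and 2 (-0.14) and the RAC3 samples 1 (-0.12) and 3 (-0.16). With the replicate term the Hippo list had 11 calls instead of 15 (all genes 25.2% instead of 28.5%), and STRN4 lost its call at an unchanged -0.14.

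**Figure D3:**
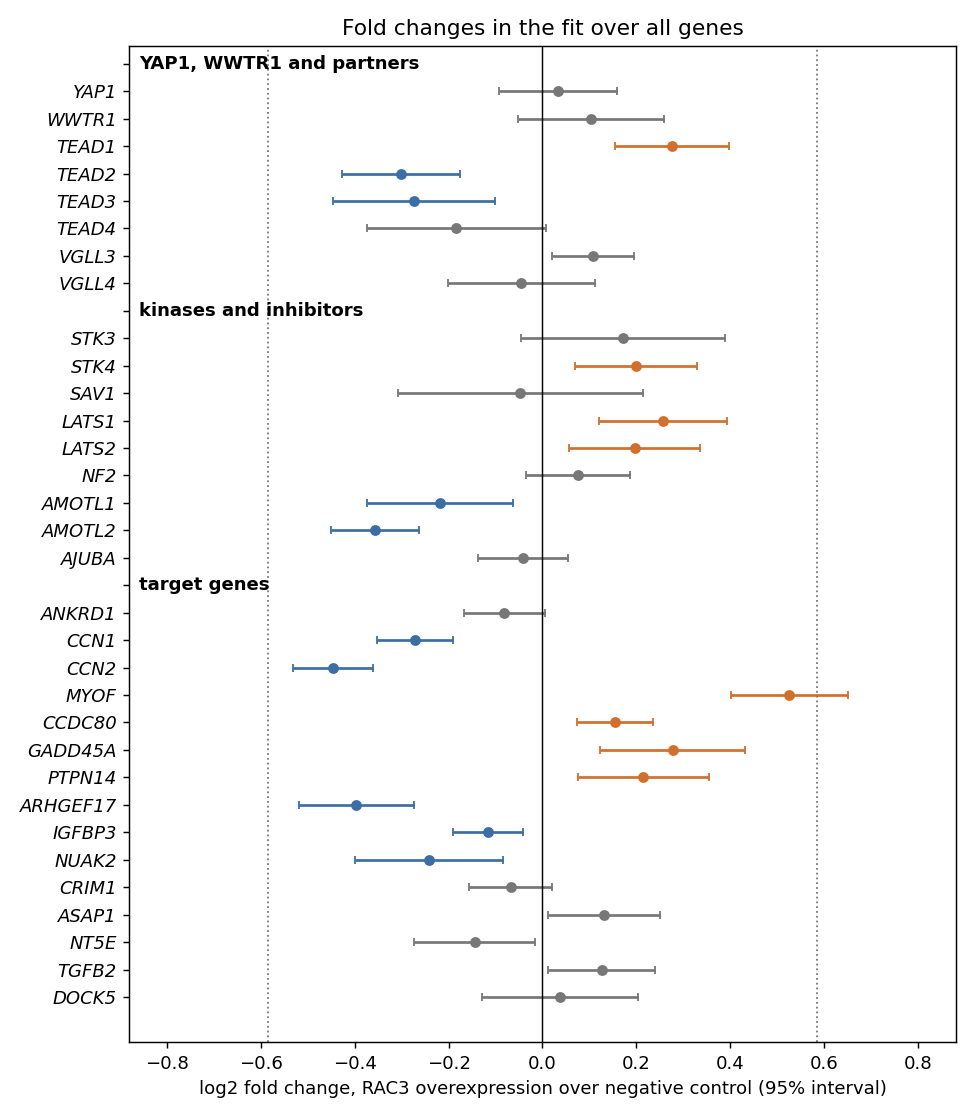
Log2 fold change (horizontal axis, RAC3 overexpression over negative control) with 95% intervals for pathway genes, from the fit over all genes, with genes called higher in orange, called lower in blue and not called in grey. Dotted lines mark a fold change of 1.5, which no fold change drawn passes (MYOF is the farthest, at 0.53), and genes under a mean of 10 CPM are not drawn.

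Among the target genes, ANKRD1, an ankyrin repeat protein of muscle and stressed cells, had 515 CPM, 534 CPM and 512 CPM in the negative controls and 515 CPM, 483 CPM and 478 CPM with RAC3 overexpression. The RAC3 sample 1 lay among the controls and the RAC3 samples 2 and 3 below them. The log2 fold change was -0.08 with a 95% interval from -0.17 to 0.004, and it did not pass the test (edgeR quasi-likelihood test, Benjamini-Hochberg adjusted p = 0.148). Without the RAC3 sample 1 it passed, at -0.12 (same test, adjusted p = 0.0413), where the adjusted p-values over the 15 alternatives ran from 0.00104 to 0.695. AXL, a receptor tyrosine kinase, was at 0.400 CPM or less in every sample except the RAC3 sample 2 at 0.486 CPM. A count of 0 allows up to 3 counts, or 0.169 CPM in the RAC3 sample 1, which covers counting error only, so a decrease or a small difference in AXL was not detectable at this depth.

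The target genes CCN2 and CCN1, secreted matricellular proteins that are the most used readouts of YAP activity, were both lower. CCN2 (chr6:131948176-131951373) had 724.5 CPM, 771 CPM and 779.9 CPM in the negative controls and 540.1 CPM, 553 CPM and 577 CPM with RAC3. CCN1 had 504 CPM, 498 CPM and 508 CPM in the controls and 428 CPM, 417 CPM and 406 CPM with RAC3. In both genes every RAC3 sample lay below every control, by more than the spread within a group. The log2 fold change of CCN2 was -0.45 with a standard error of 0.041 (edgeR quasi-likelihood test, Benjamini-Hochberg adjusted p = 2.8e-07), and that of CCN1 was -0.27 (same test, adjusted p = 4.1e-05). Both were called in all 15 alternatives. An antisense RNA overlaps 8.34% of the exon bases of CCN2.

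Of a list of 22 shared YAP target genes, which also holds AMOTL2, LATS2, ANKRD1 and AXL, 21 were tested and 11 were called by adjusted p (52.4%, against 28.5% of all genes), 5 higher and 6 lower, where 13.3% of all genes were higher and 15.3% lower. Their median log2 fold change was -0.07. With scaling by library size alone 7 were higher and 4 lower (20.2% and 10.7% of all genes). With the length trend removed 7 were called, 2 higher and 5 lower, which is 33.3% of the list against 28.4% of all genes. The largest increase was in MYOF, a membrane repair protein, which had 51.0, 55.1 and 53.4 CPM in the negative controls and 72.9, 79.9 and 77.1 CPM with RAC3. All RAC3 samples of MYOF were far above the controls, and the log2 fold change was 0.53 (edgeR quasi-likelihood test, Benjamini-Hochberg adjusted p = 3.7e-06). GADD45A, a stress response gene, was higher by 0.28, the phosphatase PTPN14, which binds YAP1, by 0.22 and the secreted protein CCDC80 by 0.15 on the log2 scale. ARHGEF17 fell by 0.40 and the growth factor binding protein IGFBP3 fell by 0.12. Of these, GADD45A lost its call without the negative control 2 (0.22), PTPN14 without the negative control 3 (0.16) and the RAC3 sample 1 (0.15), and IGFBP3 without the negative control 2 (-0.11) and the RAC3 samples 2 (-0.10) and 3 (-0.11). IGFBP3 also lost it with library size scaling alone (-0.06), with the replicate term (-0.12) and with the length trend removed (-0.075), and CCDC80 (0.08) and PTPN14 (0.14) with the length trend removed. Genes called as shared targets therefore lay on both sides of 0, and 0 of the 21 passed the study's thresholds by edgeR, DESeq2 or limma-voom, while 14 had an unadjusted p below 0.05 in edgeR, against 39.2% of all genes tested.

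TEAD proteins bind the letters GGAATG, so the 250 bases before each annotated start were searched for them on both strands in the RefSeq promoter table (GRCh38.p14). Windows were found for 8 of the 10 genes, without TEAD1 and TEAD4. Of their 12 windows, 5 held the motif, in YAP1, ANKRD1, AMOTL2, AJUBA and AXL, against 11.9% of the 35116 windows in the table, and of 18 windows of the 22 shared targets 8 held it. Neither the AP-1 motif (TGACTCA or TGAGTCA) nor the SRF CArG box was in the 12 windows, where 4.20% and 1.16% of all windows held them. The stretches below are shown because they are the places where the motif lies in genes of this pathway that did and did not change, each 5′ to 3′ on the strand of its gene, with the motif in capitals (CATTCC is its reverse complement).
AMOTL2: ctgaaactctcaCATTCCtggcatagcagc
ANKRD1, farther motif: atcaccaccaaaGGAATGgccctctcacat
ANKRD1, nearer motif: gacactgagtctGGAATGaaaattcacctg
YAP1: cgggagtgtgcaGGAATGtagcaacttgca
AJUBA: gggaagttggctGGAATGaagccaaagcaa
AXL: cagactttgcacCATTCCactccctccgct
CCN2: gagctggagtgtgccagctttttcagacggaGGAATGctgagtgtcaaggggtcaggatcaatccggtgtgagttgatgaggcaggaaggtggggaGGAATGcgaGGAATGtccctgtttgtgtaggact

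The AMOTL2 stretch lies at chr3:134374499-134374528 on the minus strand, in an exon of AMOTL2 in GENCODE release 29, with the motif from 69 to 64 bases before the annotated start. The ANKRD1 stretches lie at chr10:90921290-90921319, outside annotated genes, and at chr10:90921198-90921227, in an ANKRD1 exon, both on the minus strand. The YAP1 stretch lies at chr11:102110273-102110302 on the plus strand, in an exon of the opposite-strand gene AP001527.2. The AJUBA stretch is at chr14:22976884-22976913 on the minus strand, in an AJUBA exon, and the AXL stretch at chr19:41226531-41226560 on the plus strand, in an AXL intron. The CCN2 stretch at chr6:131951443-131951572 on the minus strand holds 3 copies of the motif and lies upstream of CCN2, inside an intron of the opposite-strand gene AL133346.1. Set beside the counts, the motif stood before annotated starts of genes called lower (AMOTL2, CCN2 and, with its sequence not shown, NUAK2). It also stood before starts of genes called higher (PTPN14 and WWC2, also not shown), genes not called (among them YAP1, ANKRD1 and AJUBA) and a gene hardly expressed (AXL). For AMOTL2, AJUBA, AXL and PTPN14 that start lies inside the gene as annotated in GENCODE release 29. AMOTL2, AJUBA and AXL each had 2 windows, and only the window shown held the motif. A match of letters is no measure of binding.

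Actin genes were examined because YAP and TEAD activity is known to follow actin. Of 29 actin and SRF target genes, 27 were tested and 12 were called by adjusted p (44.4%, against 28.5% of all genes), 1 higher and 11 lower (13.3% and 15.3% of all genes), whereas with scaling by library size alone 5 were higher and 5 lower (20.2% and 10.7% of all genes). Without the negative control 2 or the RAC3 sample 3, only 5 genes of the list were called. That was 17.9% of those tested, below the 21.5% and 20.9% of all genes in these fits. The median log2 fold change over all samples was -0.10. ACTB had 7356 CPM, 6863 CPM and 6606 CPM in the negative controls and 5962 CPM, 6134 CPM and 6165 CPM with RAC3, with no overlap. The log2 fold changes were -0.19 for ACTB, -0.27 for ACTG1, -0.18 for the crosslinker ACTN4, -0.19 for FLNA and -0.27 for CNN2, and MYL12B, a myosin light chain, was higher by 0.12. The call of MYL12B was lost without the negative controls 1 and 2 and without each RAC3 sample, at between 0.07 and 0.14, and with the replicate term, which gave 8 calls in this list instead of 12 (all genes 25.2% instead of 28.5%). CNN2 was not called by DESeq2 at an unchanged -0.27, and was still called at -0.17 without the negative control 1 and at -0.16 with the GC trend removed. ACTB and ACTG1 are nearly identical in their coding sequence and have many pseudogene copies, so the split of their reads is uncertain.

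**Figure D4:**
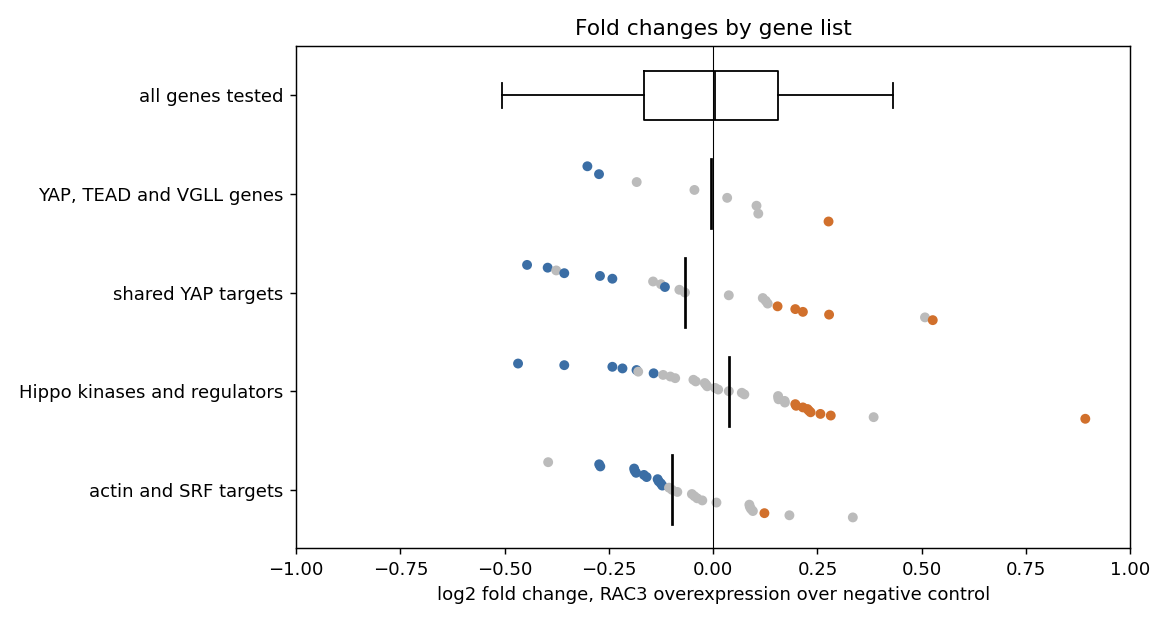
Log2 fold change (horizontal axis) of each tested gene by list, with genes called higher by adjusted p in orange, called lower in blue and not called in grey, black bars at the list medians, and a box of the quartiles of all genes tested with whiskers from percentile 5 to percentile 95. The actin and SRF list has 11 genes called lower and 1 higher, which with scaling by library size alone are 5 and 5.

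Fold changes moved with base composition. Across the 12863 tested genes with an annotated transcript, GC content of the longest transcript and log2 fold change had a Spearman correlation of -0.512, a description across genes, which share these 6 libraries and are not independent replicates. The 4288 genes of lowest GC content, up to 43.8%, had a median log2 fold change of 0.14, and the 4288 of highest GC content, from 53.8%, one of -0.15. TEAD1 (41.3% GC), LATS1 (39.7%), TAOK1 (39.5%) and MOB1A (37.3%) belong to the first of these sets, and TEAD2 (58.4%), TEAD4 (60.4%), AMOTL2 (56.7%), ACTB (55.1%) and FLNA (62.2%) to the second. Not every gene lay on the side of its set. ANKRD1 (43.3%) of the first set was at -0.08, and NF2 (56%) and TAOK2 (62.5%) of the second were at 0.07. The cause of this trend was not tested.

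With the GC trend of every library taken out, an alternative chosen after seeing the data, 5 of the 9 members were called, and the share of all genes called went from 28.5% to 20.9%, 9.93% higher and 11% lower. AMOTL2 then had a log2 fold change of -0.23, TEAD1 0.16, LATS2 0.25 and AMOTL1 -0.22, and ANKRD1 was now also called, at -0.17. YAP1, WWTR1 and AJUBA changed sign without a call, to -0.05, -0.02 and 0.02, and TEAD4, also not called, went from -0.18 to -0.02. CCN2, CCN1 and MYOF (51.5%, 50.3% and 46.6% GC) hardly moved, at -0.40, -0.25 and 0.49. The Hippo list went from 15 calls to 7, 3 of them higher, which is 20% of the list and near the 20.9% of all genes. LATS1, STK4, TAOK1, STRN3, MOB1A, WWC2 and PTPN14 lost their calls at between 0.07 and 0.19, TEAD3 and NUAK2 at -0.11 and -0.12, AMOT at 0.86, and SCRIB and STRN4 turned to 0.05 and 0.06, while NF2, TAOK2 and BTRC gained one at 0.19, 0.26 and -0.23. In the actin list 4 of the 27 genes were then higher and 6 lower, against 9.93% and 11% of all genes, with FLNA at -0.002 and ACTN4 at -0.04 no longer called and ACTB and ACTG1 still called at -0.09 and -0.14. CCDC80 also lost its call, at 0.06, and TEAD2 and ARHGEF17 kept theirs, at -0.16 and -0.21.

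**Figure D5:**
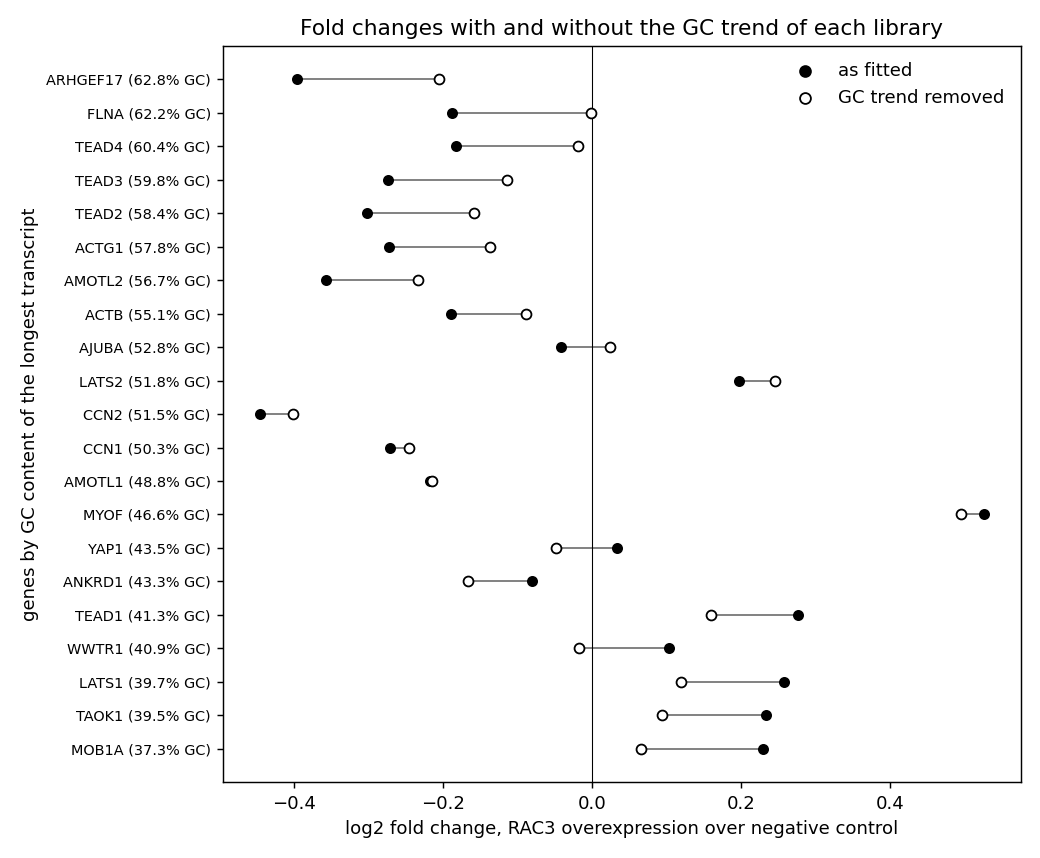
Log2 fold changes (horizontal axis) of 21 genes ordered by GC content of the longest transcript, as fitted (filled points) and with each library's GC trend removed (open points). Genes of high GC content move to the right (AMOTL2 from -0.36 to -0.23) and genes of low GC content to the left (TEAD1 from 0.28 to 0.16).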

How the data were processed

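RNA of 3 negative control and 3 RAC3 overexpression samples of Huh-7 cells was sequenced after poly(A) selection with a kit that does not mark strand. The deposited table holds raw counts per gene and FPKM values made by the authors. Per the labels, the processing notes of the submitters name HISAT2, Bowtie2 2.2.8, StringTie 1.3.1 and DESeq2, and the genome build, annotation and counting settings are not given in the sources used here. The ratio of the deposited FPKM to CPM of a gene differs between samples, so FPKM served for levels between genes, for their shares and for the sum of TEAD genes, and fold changes of single genes were tested on counts only.

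The deposited counts went into edgeR 4.0.16 (R 4.3.3): filterByExpr kept 12941 genes, TMM scaled the libraries, and the quasi-likelihood test (two-sided, no covariate) with Benjamini-Hochberg adjustment over all genes tested compared the groups. CPM values are the deposited counts scaled by library size and TMM factor. Total counts lay between 13855762 and 18199888 per sample, and the common biological coefficient of variation was 0.0533. The steps were tested on simulated data of this comparison with 12855 genes: 85 of 100 genes changed 1.5-fold and 95 of 98 genes changed 2-fold were found, and 4 unchanged genes were called. The simulation gave every gene the common coefficient of variation and held no GC trend and no change below 1.5-fold. It therefore does not show how well the smaller changes reported here are found, or how often they are called falsely. Shares of FPKM were compared by exact permutation over the samples. Alternatives were DESeq2 1.42.0, limma-voom 3.58.1, other scalings and filters, a replicate term and each sample left out. A lowess trend (span 0.3) with GC content, or else with the length of the transcript, was removed from every library in alternatives chosen after seeing the data.

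The members and lists were chosen with earlier results of these data known. Named genes were the 10 members, RAC3, RAC1, RAC2, TEAD2, TEAD3, VGLL4, CCN1, CCN2, LATS1, STK3, STK4, SAV1, NF2 and AMOT, and per list up to 5 genes higher and 5 lower, by smallest p, among those with an adjusted p below 0.05. VGLL3, added to the alternatives after seeing the data, VGLL1, VGLL2, TAOK2, BTRC, cell type markers and genes alike to AMOTL2 are named besides. Likeness was measured as the distance between centred log2(CPM + 0.5) values. Figures were drawn with matplotlib 3.10.9 in Python 3.11.15. Positions and overlaps come from GENCODE release 29 on GRCh38, matched by identifier for 20113 of 20332 genes. Opposite-strand genes also overlap 25.9% of the exon bases of WWC2 (CLDN22), 22.1% of VGLL4 (ATG7), 14.9% of SAV1 (ATL1) and 14.2% of ACTN4 (CAPN12). Reads of these partners cannot be told apart either.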

Additional observations from a re-analysis of the deposited data

How the results depend on the processing

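Over 15 alternatives, 44 genes named in the report gave 660 comparisons with the values reported: 561 kept their direction and their side of the threshold, 73 kept the direction and lost the call, 10 gained a call and 16 changed sign. Those called in all 15 were RAC3, AMOTL2, TEAD1, TEAD2, CCN1, CCN2, MYOF, ARHGEF17, DCHS1, ACTG1 and ACTB. The cause was not tested for any of the changes below, except that leaving out a sample leaves fewer samples. The members called by adjusted p, 4 of 9, were 2 with DESeq2, and 2 to 4 with each sample left out in turn (all genes 24.2%, and 20.2% to 25.4%, against 28.5%). With scaling by library size alone AJUBA, VGLL4 and SAV1 changed sign, to 0.015, 0.012 and 0.009. With the GC trend removed the Hippo calls went from 15 to 7 (20%, where all genes had 20.9%), and YAP1 (-0.049), WWTR1 (-0.018), AJUBA (0.025), RAC1 (-0.044), VGLL3 (-0.057), VGLL4 (0.011), SCRIB (0.049) and STRN4 (0.062) changed sign. With the length trend removed the shared YAP targets called went from 11 to 7 (33.3%, where all genes had 28.4%). With each sample left out in turn, Hippo calls ran from 8 to 12 and actin and SRF calls from 5 to 9. The 8 Hippo calls, without the RAC3 sample 1, were 22.9% of that list (all genes 20.2%). The 5 actin and SRF calls came without the negative control 2 or the RAC3 sample 3. They were 17.9% of that list, below the 21.5% and 20.9% of all genes. In the fits that leave out a sample the log2 fold change of YAP1 ran from -0.006 to 0.082, of VGLL4 from -0.117 to 0.032 and of SAV1 from -0.125 to 0.013. The TEAD4 share difference ran from -1.41 to 0.236 percentage points. The WWTR1 share difference was 0.952 points in raw counts.

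Samples with the same replicate number did not deviate together: their correlations over 11221 genes were -0.087, -0.046 and -0.021, and the replicate numbers therefore give no pairing. With the replicate number as a term (replicate block), 2 of the members were called, TEAD1 and AMOTL2, and 3261 of all genes against 3691.

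Depth limits AXL, AMOT and the VGLL1 and VGLL2 genes, which had few or no counts. Only RNA was analysed here, from a single cell line with 3 samples per group, and protein levels, phosphorylation and location of YAP1 and WWTR1 were not examined.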
